A study of Mus musculus with 36 samples.

Results

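Cubn, Srgn, Ly6g6e, Hesx1 and Trh were examined in mouse embryonic stem cells (mESCs) on soft and stiff substrates. They were selected on these data: among the genes higher on soft than on stiff substrates past the threshold (adjusted p of 0.05, edgeR) in 3 or more of 4 media at 48 h, they had the largest mean log2 fold changes. They are 5 of 74 genes higher on soft substrates in 3 or more media, of 17702 genes tested and of 49671 genes in the count table. All 5 passed the filter on low counts. Their soft-to-stiff difference at 48 h is therefore a description, while their responses at 24 h, to plastic, to PD03, to LIF and to time were not criteria of the choice. The response to PD03 is still not fully apart from the choice, since media with PD03 were among those used.

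The 5 genes have no common pathway in the textbooks. Cubn encodes cubilin, an endocytic receptor of kidney, gut and yolk sac endoderm that takes up vitamin B12 bound to intrinsic factor, together with amnionless and megalin. Srgn encodes serglycin, the core protein of a proteoglycan that is best known from the secretory granules of blood cells. Ly6g6e belongs to the Ly6 and uPAR family of small, disulphide-rich proteins, many of them anchored to the cell surface by a lipid. Hesx1 encodes a homeodomain repressor that is needed for the forebrain and the pituitary and is also transcribed in pluripotent cells. Trh encodes the precursor of thyrotropin-releasing hormone, the hypothalamic tripeptide that stimulates the pituitary.

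The cells were wild-type embryonic stem cells whose strain the labels give as 129m, on soft or stiff StemBond hydrogels, polyacrylamide gels to which matrix protein is tethered, or on tissue culture plastic. On soft and on stiff gels there was 1 group at 24 h, in serum + LIF, and there were 4 at 48 h, with serum alone, with LIF, with PD03 or with both added. The plastic group was kept in serum + LIF for 48 h. LIF, a cytokine, acts through STAT3 to maintain self-renewal, and PD03 blocks MEK and thereby the activation of ERK. The soft group with PD03 and without LIF had 6 libraries and the other 10 groups had 3 each, 36 in all. The labels do not say whether libraries of a group came from separate cultures, so p-values measure the spread between these libraries, which may be technical. Total counts ran from 10405696 to 26635239. Soft and stiff libraries carried 1 and the same pool identifier at 24 h, but at 48 h the stiff libraries came from a different pool, with 1 exception in serum + LIF, and the soft libraries from yet another, with 2 exceptions in serum + PD03. At 48 h substrate and pool can thus hardly be told apart. Spry4, an ERK target, had log2 fold changes of -7.17 and -7.65 with PD03 in serum and in serum + LIF (adjusted p = 6.88e-50 and 1.38e-48, edgeR), and Socs3, a STAT3 target, rose by 0.58 with LIF in serum (adjusted p = 5.46e-11). All 7 embryonic stem cell markers were detected, with a summed level of 3160 to 4580 CPM, counts scaled to TMM-adjusted library sizes, per library.

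All 5 are protein-coding in the GENCODE M21 annotation of GRCm38. Cubn (ENSMUSG00000026726, chr2:13276338-13491813, minus strand) spans 215476 bases with up to 67 exons, and its merged exons hold 14935 bases. Srgn (ENSMUSG00000020077, chr10:62493833-62527451, minus strand) has up to 4 exons and 2196 exonic bases. Ly6g6e (ENSMUSG00000013766, chr17:35076902-35078804, plus strand) has up to 4 exons and 1273 exonic bases. Hesx1 (ENSMUSG00000040726, chr14:26994416-27002329, plus strand) has up to 5 exons and 1248 exonic bases, and Trh (ENSMUSG00000005892, chr6:92242061-92244650, minus strand) has 3 exons and 1384 exonic bases. Opposite-strand genes overlap Cubn (Gm13270) and Ly6g6e (Ly6g6d), and since the counting is not stated to use strand, reads of the pairs cannot be told apart. These partners reached at most 1.15 and 1.26 CPM.

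The bases before the RefSeq start are shown for the genes whose response to LIF or PD03 is given further on, because LIF acts through STAT factors and ERK acts on ETS factors, among others. RefSeq promoters of the GRCm38.p6 build were matched for 4 of the 5 genes, Cubn, Srgn, Hesx1 and Trh. Each line gives the 250 bases before a start, 5′ to 3′ on the gene's strand, with motif matches in capitals. The windows are chr2:13491877-13492126 on the minus strand for Cubn, chr10:62527446-62527695 on the minus strand for the first of 2 Srgn starts, chr14:27000112-27000361 on the plus strand for Hesx1, which lies inside the GENCODE gene, downstream of the start given above, and chr6:92244651-92244900 on the minus strand for Trh.
Cubn: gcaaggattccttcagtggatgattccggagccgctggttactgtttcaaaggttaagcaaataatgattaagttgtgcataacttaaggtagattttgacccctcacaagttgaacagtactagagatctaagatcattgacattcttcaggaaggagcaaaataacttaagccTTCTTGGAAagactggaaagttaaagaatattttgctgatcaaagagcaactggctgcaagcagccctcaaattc
Srgn: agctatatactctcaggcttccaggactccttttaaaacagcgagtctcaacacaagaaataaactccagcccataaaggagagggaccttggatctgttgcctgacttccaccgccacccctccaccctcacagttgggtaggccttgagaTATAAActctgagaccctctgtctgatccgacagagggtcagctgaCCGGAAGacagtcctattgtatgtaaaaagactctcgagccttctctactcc
Hesx1: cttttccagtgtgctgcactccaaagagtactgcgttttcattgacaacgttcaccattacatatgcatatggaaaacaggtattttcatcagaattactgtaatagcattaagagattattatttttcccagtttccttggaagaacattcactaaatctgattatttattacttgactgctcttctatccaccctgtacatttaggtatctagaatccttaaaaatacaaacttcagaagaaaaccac
Trh: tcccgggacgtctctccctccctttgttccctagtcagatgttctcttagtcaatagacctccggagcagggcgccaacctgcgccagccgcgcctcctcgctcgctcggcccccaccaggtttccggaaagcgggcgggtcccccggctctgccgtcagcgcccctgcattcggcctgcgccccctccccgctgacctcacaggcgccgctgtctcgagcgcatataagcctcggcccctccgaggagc
Both strands were searched for the STAT motif TTCNNNGAA, for the E-box, written as CACGTG, for the ETS motif, taken here as CCGGAAG, for the TATA box in its form TATAAA and for the octamer ATTTGCAT, and no matches overlapped. The Cubn window held a STAT match, TTCTTGGAA, from position -75, and such a match is found in 7.02% of the 32851 windows of this length in the table. In the first Srgn window there was an ETS match from position -52, as in 6.91% of all windows, and a TATA box from position -98, as in 12.4%. The second Srgn start, chr10:62507758-62508007, is not printed and held an octamer on the reverse strand, as in 1.6% of windows. An E-box is found in 6.02% of all windows. In the Hesx1 and Trh windows none of these letter patterns was found. The Trh window was rich in G and C, at 68.8% with 25 CpG dinucleotides, against a median of 52.4% and 6 over all windows. Those of Hesx1, Cubn and Srgn were lower in GC than that median, at 34%, 39.6% and 49.6%. A match is a description of the letters and not a bound site.

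Levels of the 5 genes differed widely between groups. Per kilobase of exon in serum + LIF on soft substrates at 48 h, Trh stood at 93.6 CPM, Srgn at 4.84, Ly6g6e at 2.89, Cubn at 2.35 and Hesx1 at 1.99. With LIF and PD03 on soft substrates the order changed, with Hesx1 at 33.1 CPM per kilobase, Ly6g6e at 12.9, Srgn at 7.71, Trh at 4.73 and Cubn at 0.986. The ratio of the highest to the lowest group mean was 35.9 for Hesx1, 33.5 for Trh, 11.9 for Ly6g6e, 5.45 for Srgn and 4.81 for Cubn. The lowest counts in a library were 11 for Hesx1 and 20 for Ly6g6e, both in media without PD03. In bulk RNA, fewer cells expressing a gene and less RNA per cell cannot be told apart.

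**Figure D1:**
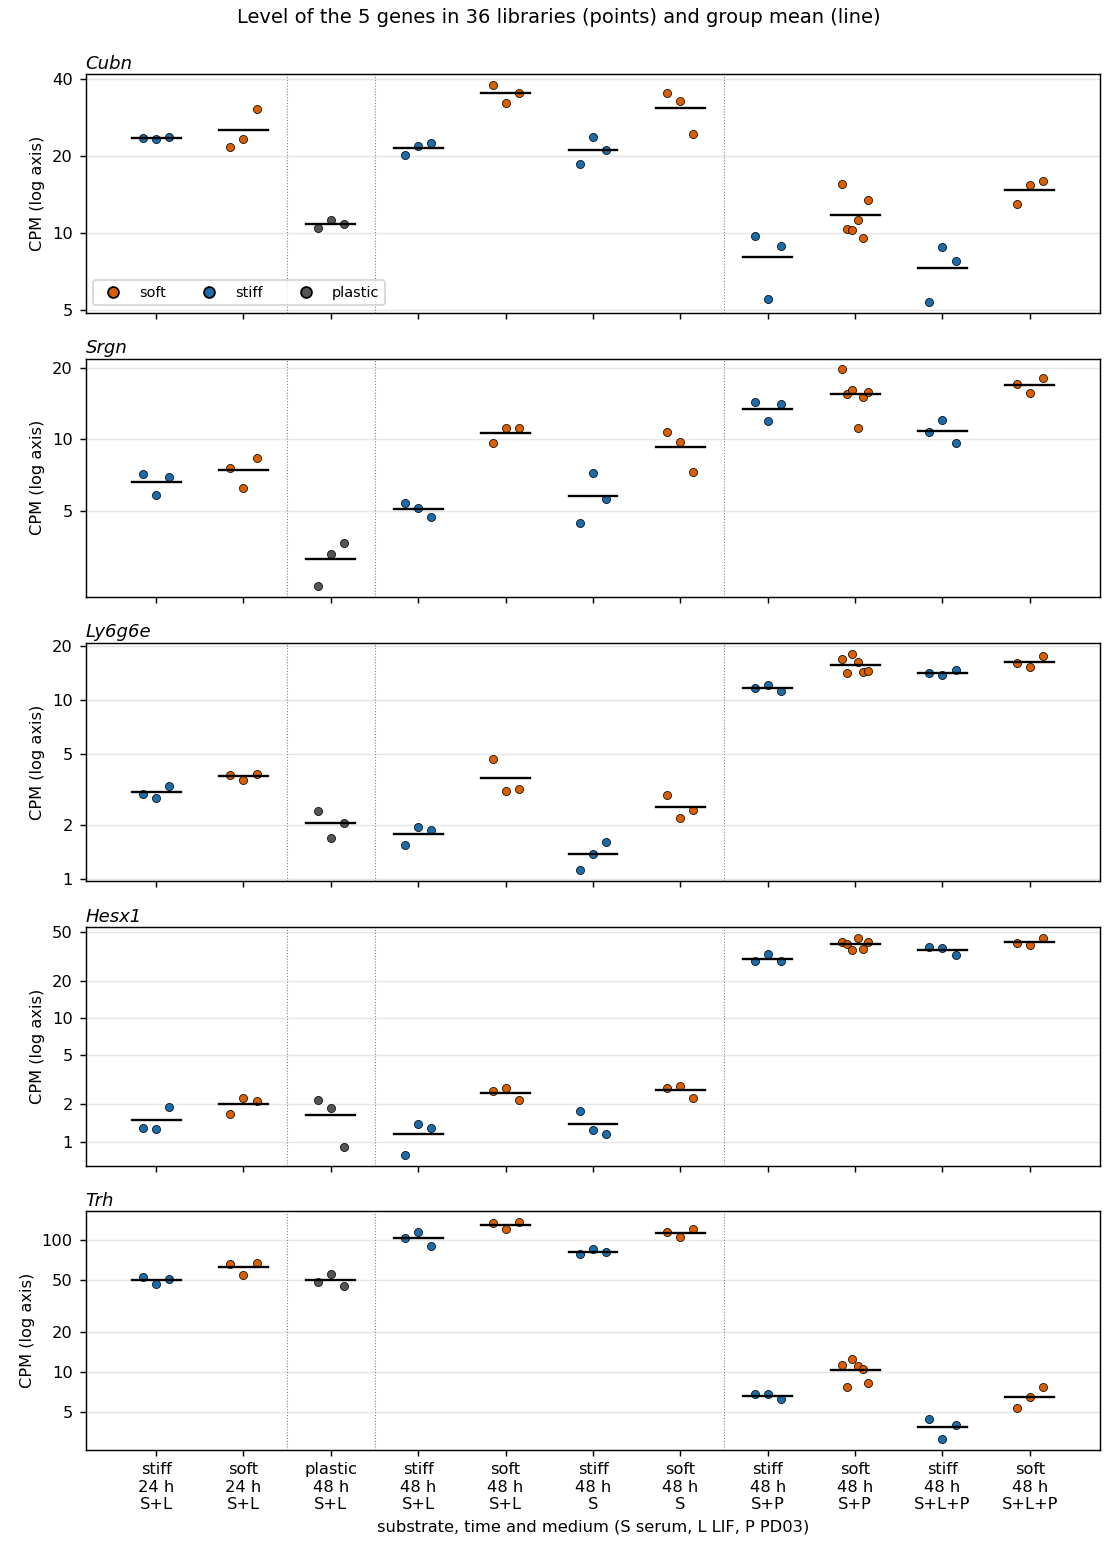
CPM on a log axis of Cubn, Srgn, Ly6g6e, Hesx1 and Trh in 36 libraries (points) of 11 groups, with the group mean as a line, for soft, stiff and plastic substrates. Trh lies lowest and Ly6g6e and Hesx1 lie highest in the 4 groups with PD03, and within each medium at 48 h the soft mean lies above the stiff mean.

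Cubn was the gene with the largest mean difference between soft and stiff substrates at 48 h, with a log2 fold change of 0.72 averaged over the media. In serum + LIF its libraries held 32.3, 35.2 and 37.8 CPM on soft and 20.1, 21.9 and 22.5 CPM on stiff substrates. In serum they held 24.3, 32.7 and 35.3 CPM on soft and 18.5, 21.1 and 23.6 on stiff substrates. In both media every soft library lay above every stiff one. With LIF and PD03 the values were 12.9, 15.3 and 15.9 CPM on soft and 5.36, 7.76 and 8.75 on stiff substrates, again without overlap, and this was the medium with the widest ratio, 2.02. With PD03 alone the 6 soft libraries ran from 9.51 to 15.5 CPM (median 10.7) and the stiff ones held 5.48, 8.86 and 9.74, so that 5 of 6 soft libraries lay above all stiff ones. The log2 fold changes were 0.70, 0.56, 1.01 and 0.59 in that order, each past the threshold on which the genes were selected. At 24 h the soft libraries held 21.6, 23.3 and 30.5 CPM and the stiff ones 23.3, 23.4 and 23.6, and the groups overlapped. Plastic, with 10.4, 10.8 and 11.2 CPM, lay below every hydrogel library in serum + LIF. Of 10 neighbouring pairs in the order of the 11 group means, 7 overlapped.

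Srgn was lowest on plastic, with 2.4, 3.27 and 3.66 CPM. In serum + LIF at 48 h the soft libraries held 9.66, 11.1 and 11.2 CPM and the stiff ones 4.71, 5.15 and 5.4, a ratio of 2.09 between the means. In serum the values were 7.29, 9.75 and 10.7 CPM on soft and 4.45, 5.62 and 7.21 on stiff substrates. The soft libraries in serum cleared the stiff ones only narrowly, the lowest soft value being 7.29 and the highest stiff value 7.21 CPM. With LIF and PD03 the values were 15.6, 17.1 and 18.1 CPM on soft and 9.65, 10.7 and 12.1 on stiff substrates. With PD03 alone the soft libraries ran from 11.2 to 19.7 CPM (median 15.7) against 11.9, 14.1 and 14.4 on stiff substrates. The lowest soft library lay below all 3 stiff ones there, and this is the medium in which Srgn missed the threshold, with a log2 fold change of 0.22 against 1.07, 0.72 and 0.65 in serum + LIF, serum and serum + LIF + PD03. At 24 h the groups overlapped, at 6.24, 7.58 and 8.33 CPM on soft and 5.83, 6.92 and 7.11 on stiff substrates. In the order of its 11 group means, 9 of 10 neighbouring pairs overlapped.

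Ly6g6e fell into 2 ranges, from 1.38 to 3.76 CPM as group means without PD03 and from 11.7 to 16.4 with it, and no library of one range reached the other. In serum + LIF at 48 h the soft libraries held 3.11, 3.2 and 4.7 CPM and the stiff ones 1.56, 1.89 and 1.95. In serum they held 2.21, 2.45 and 2.96 CPM on soft and 1.12, 1.39 and 1.62 on stiff substrates. Soft exceeded stiff 2.04 and 1.84 times in these media. With PD03 alone the soft libraries ran from 14.2 to 18.2 CPM (median 15.5) against 11.2, 11.7 and 12.1 on stiff substrates. With LIF and PD03 the values were 15.4, 16.1 and 17.7 CPM on soft and 13.9, 14.2 and 14.7 on stiff substrates. In both media with PD03 the groups did not overlap, but the ratios were smaller, at 1.35 and 1.15, and the log2 fold change of 0.20 in serum + LIF + PD03 missed the threshold. The other 3 log2 fold changes were 1.02 in serum + LIF, 0.92 in serum and 0.44 in serum + PD03. At 24 h every soft library, at 3.57, 3.83 and 3.87 CPM, lay above the stiff ones, at 2.84, 3.01 and 3.33 CPM. Plastic held 1.69, 2.07 and 2.4 CPM, among the lowest groups. Neighbouring groups overlapped in 8 of 10 pairs.

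Hesx1 was low without PD03, at group means of 1.15 to 2.60 CPM, and stood at 30.3 to 41.4 CPM with it. In serum + LIF at 48 h the soft libraries held 2.16, 2.57 and 2.73 CPM and the stiff ones 0.782, 1.28 and 1.39. In serum they held 2.24, 2.71 and 2.83 CPM on soft and 1.15, 1.25 and 1.76 on stiff substrates. These soft libraries lay above all stiff ones, and the ratios of the means were 2.16 and 1.87. With PD03 alone the soft libraries ran from 35.7 to 44.6 CPM (median 40.3) against 28.9, 29 and 33.1 on stiff substrates. With LIF and PD03 they held 39.3, 40.4 and 44.4 CPM on soft and 32.7, 36.7 and 37.9 on stiff substrates. The ratio was 1.31 and 1.16 in these media, and the log2 fold change of 0.21 in serum + LIF + PD03 missed the threshold, against 1.09 in serum + LIF, 0.84 in serum and 0.39 in serum + PD03. At 24 h the values overlapped, at 1.66, 2.14 and 2.26 CPM on soft and 1.27, 1.28 and 1.9 on stiff substrates. Plastic held 0.898, 1.88 and 2.17 CPM, which overlapped both hydrogels. In the order of the group means, 9 of 10 neighbouring pairs overlapped.

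Trh, the precursor of a secreted tripeptide, was the most abundant of the 5 per kilobase of exon in every group without PD03. In serum + LIF at 48 h the soft libraries held 120, 134 and 135 CPM and the stiff ones 90.2, 103 and 114. In serum they held 104, 114 and 121 CPM on soft and 77.9, 80.7 and 84.7 on stiff substrates. The groups did not overlap in either medium. With PD03 alone the soft libraries ran from 7.75 to 12.7 CPM (median 10.9) and the stiff ones held 6.29, 6.85 and 6.87. With LIF and PD03 the soft libraries held 5.39, 6.48 and 7.79 CPM and the stiff ones 3.15, 4.02 and 4.42. Soft again lay above stiff without overlap, so that Trh had no overlap in any of the 4 media, and the log2 fold changes were 0.34, 0.48, 0.65 and 0.75 in the order given. At 24 h the soft libraries held 54.1, 65.1 and 66.2 CPM and the stiff ones 45.9, 50.6 and 52.6, also without overlap. Plastic held 44.9, 47.5 and 55.3 CPM, close to stiff substrates at 24 h and below both hydrogels in serum + LIF at 48 h. Neighbouring groups overlapped in 4 of 10 pairs, the fewest of the 5 genes.

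Read across the genes, all 5 had no overlap between soft and stiff libraries in serum + LIF, in serum and in serum + LIF + PD03 at 48 h, and 3 had none in serum + PD03. Of all genes tested, 7.64%, 9.83%, 11.6% and 5.85% had soft libraries wholly above stiff ones in these 4 media. The members past the threshold numbered 5 both with and without LIF in the absence of PD03, 4 with PD03 alone and 3 with LIF and PD03, where, in the order serum + LIF, serum, serum + PD03 and serum + LIF + PD03, 0.446%, 2.08%, 2.13% and 2.8% of all genes were higher on soft substrates and 0.333%, 2.77%, 3.42% and 4.82% lower. These comparisons chose the genes, and nothing is read from the counts. Whether the difference varied between media was not tested for the same reason. Trh, the last gene taken, had a mean log2 fold change of 0.56 over the media, and the next genes outside were Gm15501 at 0.48, Lrrc34 at 0.46 and Dlgap3 at 0.45. Gm26035, a gene past the threshold in 2 media and so left out, had a mean of 0.72. With pool as a further term, and since columns carry no sample name, over all 45 ways to place the pool exceptions, the log2 fold change of Trh ran from -0.24 to 0.75 in serum + LIF and from -0.02 to 0.80 in serum, and that of Cubn from 0.29 to 1.23 and from 0.18 to 1.05. The part of the pools in the difference at 48 h cannot be told apart from the substrates.

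**Figure D2:**
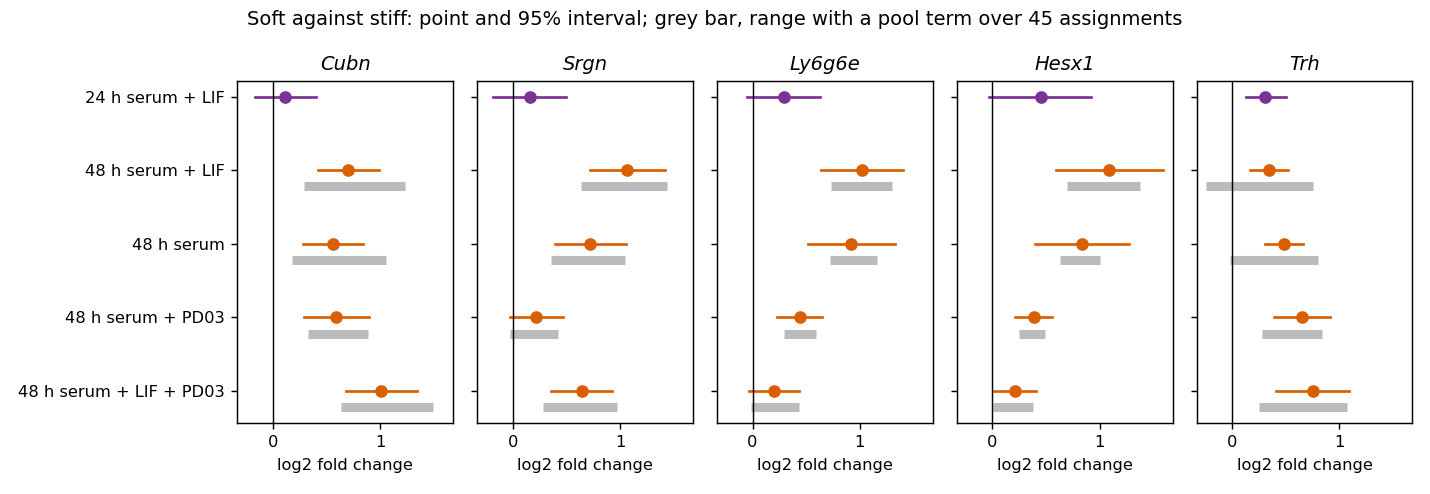
Log2 fold change of soft against stiff substrates (x axis) for 5 genes in 5 combinations of time and medium, as the edgeR estimate (point) with its 95% interval (line), at 24 h in purple and at 48 h in orange. Grey bars give the range of the estimate with a pool term over 45 assignments, which crosses 0 for Trh in serum + LIF, where it runs from -0.24 to 0.75.

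At 24 h, in libraries that took no part in the choice and shared a pool, all 5 genes had a higher fitted level on soft than on stiff substrates, but 1 of 5 passed the test. Trh rose, with a log2 fold change of 0.31 ± 0.09 (SE, n = 3 against 3, adjusted p = 0.0431, edgeR). Hesx1 had 0.45 ± 0.24 (95% interval -0.03 to 0.92, adjusted p = 0.383, edgeR) and Ly6g6e 0.29 ± 0.17 (-0.05 to 0.63, adjusted p = 0.444, edgeR). Srgn, at 0.16 ± 0.17 (-0.18 to 0.50), and Cubn, at 0.11 ± 0.14 (-0.17 to 0.40), were nearest to 0, with adjusted p of 0.752 and 0.804 by edgeR. The interval of each of these 4 genes included 0. Among all genes 1.03% were higher and 2.52% lower on soft substrates at 24 h, and 7.24% had soft libraries wholly above stiff ones, as Ly6g6e and Trh did. The median over the 5 genes was 0.29 and that over all genes tested -0.002. Of the 74 genes higher on soft substrates in 3 or more media at 48 h, 35 were also higher at 24 h past the threshold. The call for Trh did not hold in DESeq2 (adjusted p = 0.123) and was lost on leaving out any of 4 of the 6 libraries, stiff library 2 or 3 or soft library 1 or 3 in column order, with an adjusted p of up to 0.219.

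Against plastic in serum + LIF at 48 h, the mean of both hydrogels was higher for the receptor Cubn, the proteoglycan core Srgn and the hormone precursor Trh, and the other two genes did not pass. Cubn was 2.55 times as high (log2 fold change 1.35 ± 0.14, adjusted p = 1.94e-10, edgeR), Srgn 2.38 times (1.25 ± 0.18, adjusted p = 4.11e-07) and Trh 2.33 times (1.22 ± 0.08, adjusted p = 1.26e-16). Ly6g6e gave 0.32 ± 0.17 (95% interval -0.02 to 0.67, adjusted p = 0.268) and Hesx1 0.01 ± 0.22 (-0.44 to 0.46, adjusted p = 0.988, edgeR). Across all genes 4.38% were higher on hydrogels and 6.52% lower, against 3 and 0 of the 5. Of the 74 genes higher on soft substrates in 3 or more media, 56 were higher on hydrogels and 0 lower past the threshold. A call against plastic is thus not particular to these 5 genes. The mean of the hydrogels does not use the difference that chose the genes, while each hydrogel alone does and is given as a value. On soft substrates the log2 fold changes over plastic were 1.70 for Cubn, 1.79 for Srgn, 0.83 for Ly6g6e, 0.56 for Hesx1 and 1.39 for Trh. On stiff substrates they were 1.0, 0.72, -0.19, -0.53 and 1.05 in the same order, so that stiff hydrogels lay on the side of soft ones for Cubn, Srgn and Trh. Plastic and 1 stiff library shared a pool and the other hydrogel libraries did not. With the pool term, Cubn and Trh passed under all 45 assignments and Srgn under 35.

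PD03 split the genes into 2 directions, with the same signs in serum and in serum + LIF. Cubn and Trh fell, and Srgn, Ly6g6e and Hesx1 rose, all past the threshold as means over soft and stiff substrates. Hesx1 rose 17.8 times in serum (log2 fold change 4.16 ± 0.10, adjusted p = 3.02e-37, edgeR) and 22.5 times in serum + LIF (4.49 ± 0.11, adjusted p = 4.67e-37). Ly6g6e rose 7.37 and 5.91 times (2.88 ± 0.11 and 2.56 ± 0.11, adjusted p = 3.56e-29 and 4.79e-27, edgeR). Srgn rose 2.01 and 1.84 times (1.0 ± 0.10 and 0.88 ± 0.11, adjusted p = 4.21e-12 and 1.42e-09, edgeR). Among the genes that fell, Trh had log2 fold changes of -3.51 ± 0.07 and -4.52 ± 0.08 (adjusted p = 9.03e-40 and 1.59e-41, edgeR). Cubn had -1.40 ± 0.10 and -1.41 ± 0.11 (adjusted p = 3.32e-17 and 2.39e-16, edgeR). A response to PD03 was common, with 33.4% of all genes higher and 32.7% lower in serum and 32.9% and 32.6% in serum + LIF, so that a call is not particular to these genes. By size among 17702 genes in serum and in serum + LIF, Trh had ranks 89 and 36 by fall, and by rise Hesx1 had ranks 79 and 67 and Ly6g6e 245 and 373. Of the 4 media of the choice, 2 held PD03, and Srgn, Ly6g6e and Hesx1 each needed a call there as the last of its 3. For Srgn that call was in serum + LIF + PD03, and for Ly6g6e and Hesx1 in serum + PD03. These calls were made in media with PD03, so the rise of Srgn, Ly6g6e and Hesx1 is not fully apart from the choice. Whether the higher counts with PD03 bore on the calls was not tested. On soft and on stiff substrates alone the signs were the same. For Trh the log2 fold changes with PD03 in serum were -3.43 on soft and -3.59 on stiff substrates, and for Hesx1 3.93 and 4.38. Every call and direction with PD03 was kept under the pool term in all 45 assignments and on leaving out any library. Of the 74 genes higher on soft substrates, 52 rose and 17 fell with PD03 in serum. These genes were chosen in part in media with PD03, so this split is not apart from the choice either, and nothing is read from it.

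**Figure D3:**
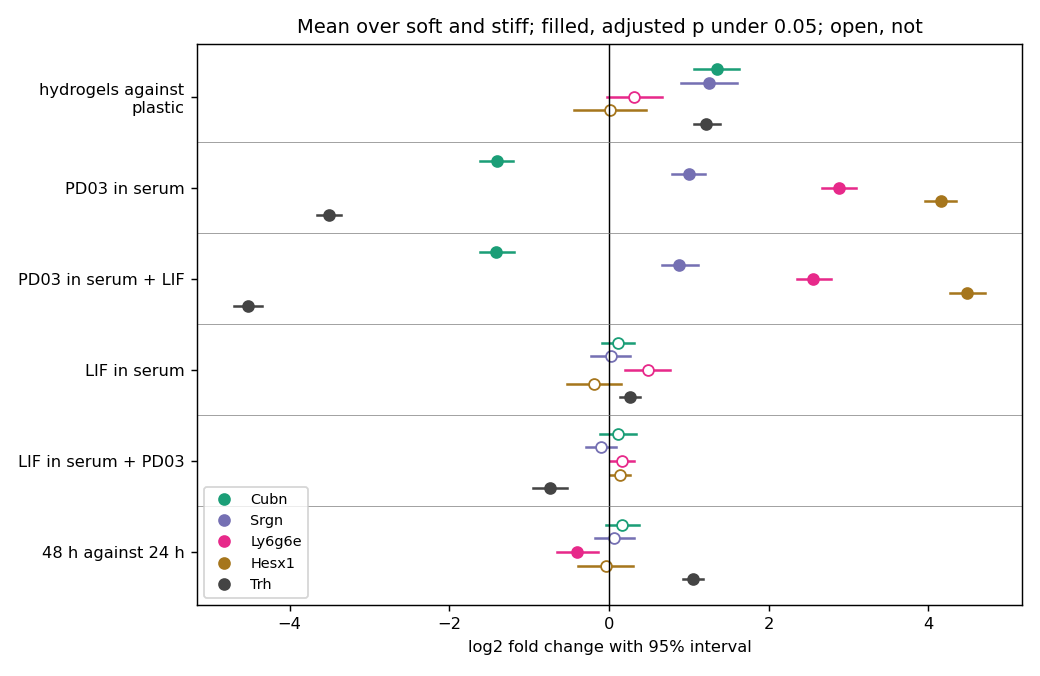
Log2 fold change (x axis) of 5 genes for 6 comparisons, each a mean over soft and stiff substrates, with the 95% interval as a line, where filled points passed an adjusted p of 0.05 and open points did not. With PD03, Hesx1 lies at 4.16 and 4.49 and Trh at -3.51 and -4.52, the outermost of the 5 on each side.

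LIF moved 1 of the 5 genes past the threshold, Trh, and its direction differed with PD03. In serum, adding LIF raised Trh by 0.27 ± 0.06 on the log2 scale (adjusted p = 0.0117, edgeR). In serum + PD03, adding LIF lowered it, with a log2 fold change of -0.74 ± 0.11 (adjusted p = 1.93e-05, edgeR). The difference between the 2 responses, a contrast added after the values had been seen, was -1.0 ± 0.12 (95% interval -1.25 to -0.76, adjusted p = 2.45e-06, edgeR), which was the smallest p of all genes tested. Of all genes 0.412% had a higher and 0.469% a lower response to LIF with PD03 than without. On stiff substrates alone the responses of Trh were 0.34 without and -0.79 with PD03, and on soft substrates 0.20 and -0.69, with the same signs on both substrates. Ly6g6e gave 0.49 ± 0.14 with LIF in serum (adjusted p = 0.077, edgeR) and did not pass. The intervals of the other members with LIF in serum were -0.08 to 0.32 for Cubn, -0.22 to 0.27 for Srgn and -0.53 to 0.15 for Hesx1. LIF moved few genes, with 0.717% higher and 0.401% lower in serum and 0.661% and 0.588% in serum + PD03. The rise in serum was lost in DESeq2 (adjusted p = 0.0787) and on leaving out any of 4 of the 12 libraries, the second stiff in serum + LIF, the first stiff in serum, the first soft in serum + LIF or the second soft in serum, with an adjusted p of up to 0.106, while the fall and the difference kept their calls there.

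**Figure D4:**
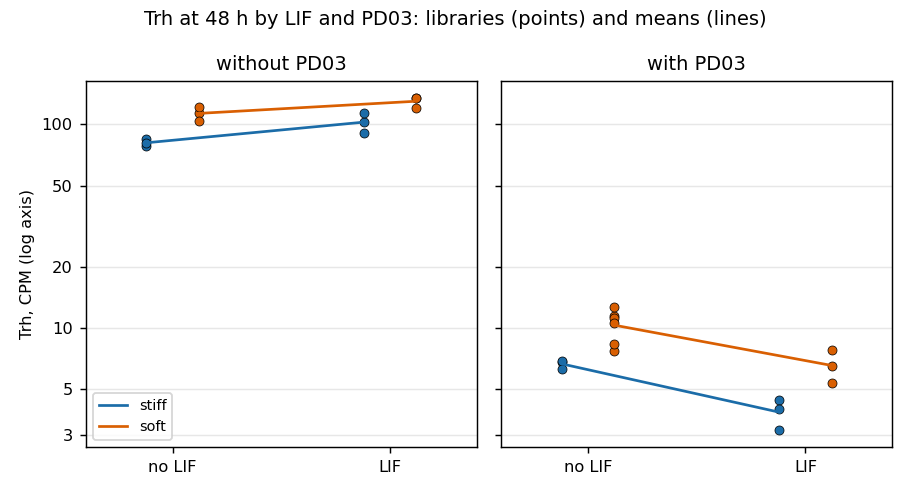
CPM of Trh on a log axis at 48 h without and with LIF, in libraries without PD03 (left) and with PD03 (right), for soft and stiff substrates, with libraries as points and group means joined by lines. The lines go up to the right without PD03, from 81.1 to 102 CPM on stiff substrates, and down with it, from 6.67 to 3.86 CPM.

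Between 24 and 48 h in serum + LIF, Trh rose and Ly6g6e fell as means over both hydrogels. Trh had a log2 fold change of 1.05 ± 0.06 (adjusted p = 1.11e-18, edgeR), with 1.07 on soft and 1.04 on stiff substrates. Ly6g6e had -0.40 ± 0.13 (adjusted p = 0.0116, edgeR), with -0.03 on soft and -0.76 on stiff substrates. The values for the rest were 0.17 ± 0.10 for Cubn, 0.07 ± 0.12 for Srgn and -0.04 ± 0.17 for Hesx1, with adjusted p of 0.181, 0.719 and 0.878 by edgeR. Cubn had 0.47 on soft and -0.12 on stiff substrates, and Srgn 0.52 and -0.39. Of all genes 18.1% were higher and 18.7% lower at 48 h. Time and pool coincided in all but 1 of these libraries. With the pool term Trh kept its call under all 45 assignments, and Ly6g6e under none.

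Over the 11 groups some of the 5 genes ran alike and others opposite. Cubn and Trh moved together (Pearson r of 0.86 between group means of log2 CPM, n = 11), as did Ly6g6e and Hesx1 (r = 0.97), while Trh ran opposite to Hesx1 (r = -0.93) and Ly6g6e (-0.91). Srgn had 0.85 with Ly6g6e and 0.83 with Hesx1. Over the 7 groups without PD03 the values of these 6 pairs were 0.69, 0.66, 0.40, -0.02, 0.60 and 0.71, and Cubn and Srgn, at -0.21 over all groups, stood at 0.98. These are descriptions over group means that share the same libraries. The groups include the soft and stiff ones at 48 h whose difference chose the genes, so a positive r is partly built in. Among 10474 genes with a mean of at least 5 CPM, the most like Cubn were Cbr1 (r = 0.972), Zfp414 (0.969) and Cxxc5 (0.967). For Srgn they were Pdcd4 (0.958), Tiam1 (0.957) and Ptges2 (0.956). For Ly6g6e they were Pced1b (0.994), Spp1 (0.992) and Kit (0.992), and for Hesx1 Ccdc6, Sgpl1 and Stk3, each at 0.997. For Trh they were Champ1 (0.998), D16Ertd472e (0.994) and Rnmt (0.994). Likeness was common for the genes with a large response to PD03, with 1729, 1981 and 1819 genes over an r of 0.9 for Ly6g6e, Hesx1 and Trh, and rare for Cubn (95) and Srgn (68).

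No tested partner of cubilin was higher on soft substrates past the threshold in any comparison. Of 10 tested genes of the cubilin complex and of cobalamin uptake, 0 were higher, and 2 were lower at 24 h. At 48 h 0 were lower with LIF, 1 in serum alone, 2 with PD03 and 4 with LIF and PD03. Of all genes 2.52% were lower at 24 h, and 0.333%, 2.77%, 3.42% and 4.82% in these media. The gene past the threshold most often was Lrp2, which encodes megalin, the large receptor that internalises cubilin. At 24 h Lrp2 lay between 190 and 223 CPM on soft and between 294 and 319 CPM on stiff substrates. Its log2 fold changes were -0.56 ± 0.06 at 24 h (adjusted p = 3.47e-10, edgeR), -0.14 ± 0.06 in serum + LIF (adjusted p = 0.333), -0.33 ± 0.06 in serum (adjusted p = 6.59e-05), -0.80 ± 0.05 in serum + PD03 (adjusted p = 6.94e-18) and -1.05 ± 0.06 in serum + LIF + PD03 (adjusted p = 6.32e-20). Lrp2 thus fell in 4 of the 5 comparisons, while the log2 fold changes of Cubn were 0.11 to 1.01 over the same 5. Dab2, an endocytic adaptor that binds the tail of megalin, fell at 24 h (-0.39 ± 0.09) and in both media with PD03 (-0.36 ± 0.06 and -0.44 ± 0.07), and had 0.26 ± 0.09 in serum + LIF (adjusted p = 0.219, edgeR) and 0.00 in serum (adjusted p = 0.996). Tcn2, the plasma carrier of cobalamin, fell in serum + LIF + PD03, by 0.33 on the log2 scale. Amn, the partner of cubilin at the membrane, averaged 0.602 CPM, too low to compare. The list median was -0.14 at 24 h, against -0.002 over all genes. The pool term was read for the 5 members only. For this list and for the lists and markers below, substrate and pool can therefore hardly be told apart at 48 h.

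Of 19 tested genes of glycosaminoglycan chain synthesis, the chains that serglycin carries, 1 was lower at 24 h, and at 48 h 0 were lower with LIF, 1 in serum alone, 3 with PD03 and 2 with LIF and PD03, where 1 was higher. Of all genes 2.52% were lower at 24 h, and 0.333%, 2.77%, 3.42% and 4.82% in these media at 48 h. With LIF and PD03 2.8% of all genes were higher. The sulphotransferase genes Chst15 and Chst12 passed in 3 comparisons each, and both were lower on soft substrates, at -0.42 ± 0.10 and -0.19 ± 0.05 in serum + PD03. Chpf2, a chondroitin synthesis gene, fell in serum + PD03 (-0.48 ± 0.14), and Xylt2, which starts the chains, rose in serum + LIF + PD03 (0.24 ± 0.08). Of 14 tested genes of the Ly6 and uPAR family, none passed at 24 h or in serum + LIF, and in the other media 2 calls were higher and 2 lower, each 1 of 14, where 2.08% to 2.8% of all genes were higher and 3.42% to 4.82% lower. Plaur, the urokinase receptor, fell in both media with PD03 (-0.56 ± 0.09 and -0.73 ± 0.10), Ly6a rose in serum (0.68 ± 0.17), and Ly6e rose in serum + LIF + PD03 (0.20 ± 0.05).

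Of 14 tested co-repressors and partners of HESX1, 1 was higher on soft substrates at 24 h. At 48 h 1 was higher with LIF, 3 in serum alone, 3 with PD03 and 6 with LIF and PD03, where the shares of all genes higher were 1.03%, 0.446%, 2.08%, 2.13% and 2.8% from 24 h on. Tle3, a Groucho co-repressor, rose at 24 h (0.18 ± 0.05, adjusted p = 0.016, edgeR), in serum + LIF (0.22 ± 0.05) and in serum + LIF + PD03 (0.16 ± 0.04). Aes, a short member of the same family, Sox2, a pluripotency factor, and Gli2, an effector of Hedgehog signalling, each passed in the same 3 media, serum, serum + PD03 and serum + LIF + PD03. Their log2 fold changes in serum were 0.22 ± 0.06, 0.17 ± 0.04 and 0.32 ± 0.05. In serum + LIF + PD03 the homeodomain factor Otx2 (0.35 ± 0.09) and Sox3 (1.43 ± 0.38), which acts in pituitary development, rose as well. Of 9 tested genes that act in the processing or breakdown of TRH, Cpe, a carboxypeptidase of prohormone processing, fell at 24 h (-0.59 ± 0.17, adjusted p = 0.0267, edgeR). The TRH receptor genes on this list were not among those tested. Pcsk1n, an inhibitor of a prohormone convertase, rose in serum + LIF + PD03 (0.40 ± 0.10, adjusted p = 0.00707, edgeR), and no other tested gene of this list passed in any of the 5 comparisons. Of all genes 2.52% were lower at 24 h and 2.8% higher in serum + LIF + PD03.

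Because the 5 genes are also known from other tissues, markers of those tissues were read beside them. The 10 extraembryonic endoderm markers summed to 18.7 to 42.7 CPM per library, led by Gata6 with a mean of 7.63 CPM, and none of the 7 tested passed between soft and stiff substrates in any of the 5 comparisons. Their sum ran from 32.3 to 42.7 CPM on soft and from 33.6 to 36.2 CPM on stiff substrates in serum + LIF at 48 h. After Gata6, the markers Sox7, Gata4 and Pdgfra averaged 7.13, 4.76 and 4.74 CPM, and the lowest of the list were Ttr, Afp and Apoa1, at 0.015, 0.0357 and 0.134 CPM. Of the 8 blood cell markers, which summed to 10.2 to 28.4 CPM, 5 were tested. Runx1, the highest of them, fell at 24 h by 0.71 on the log2 scale (adjusted p = 0.000467, edgeR), where 2.52% of all genes were lower. Cd34 and Tal1 averaged 2.43 and 2.08 CPM, and Ptprc and Cd48 averaged 0.138 and 0.0124 CPM. Of the 7 neural and pituitary markers, with sums of 14.8 to 58.8 CPM, 4 were tested. Of these 1, Pax6, was higher on soft substrates in serum + LIF, in serum and in serum + LIF + PD03, beside 0.446%, 2.08% and 2.8% of all genes. The 5 primitive streak markers, at 4.07 to 20.4 CPM, had no call. Of 6 fibroblast markers, at 24.3 to 98.4 CPM, 5 were tested. Col1a1 fell in all 5 comparisons and Col1a2 in serum and in both media with PD03, and no other tested fibroblast marker passed. At 24 h 2.52% of all genes were lower. At 48 h 0.333% were lower in serum + LIF, 2.77% in serum, 3.42% with PD03 and 4.82% with LIF and PD03. Among the 7 embryonic stem cell markers, 3 were higher on soft substrates at 24 h. At 48 h 0 were higher with LIF, 4 in serum alone, 4 with PD03 and 5 with LIF and PD03, beside the same shares of all genes as for the partners of HESX1. The part of these markers in the levels of the 5 genes was not tested.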

How the data were processed

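RNA was sequenced from 36 libraries of mouse embryonic stem cells in 11 groups of substrate, medium and time. Per the study's methods, the authors aligned reads to GRCm38 (mm10) with STAR 2.5.2a and counted them per Ensembl gene with htseq-count, and compared groups with DESeq. The labels name a NuGen kit. Neither the strand setting nor the treatment of multi-mapping reads was given. The authors deposited raw counts for 49671 genes, as whole numbers. Columns named their group but no replicate, so a library number is only a name, given in column order.

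The fit was made with edgeR 4.0.16 in R 4.3.3 (filterByExpr by group, which kept 17702 genes and 99.92% of the counts, TMM scaling, 1 coefficient per group, quasi-likelihood test, limma 3.58.1). p-values were adjusted by Benjamini-Hochberg across these 17702 genes, and 0.05 was the threshold. CPM values used TMM-scaled library sizes, and correlations used log2 CPM with a prior count of 2. Alternatives were RLE scaling, no filter, DESeq2 1.42.0, a fit to the compared groups alone, a pool term over 45 column assignments and leaving out each library. Coordinates come from GENCODE M21 and promoters from RefSeq (GRCm38.p6). Scripts were tested on simulated counts. Among 45 pairs of libraries within groups, the chi-square per degree of freedom over genes ran from 2.13 to 11.7, so that each pair differed by more than sampling noise.

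The genes, lists, markers and tests were chosen with earlier results of these data known. Named genes followed a rule. It took the 5 genes, the next 3 by mean change, any gene with a larger mean that passed in 2 media, the 3 genes most like each member, Spry4 and Socs3, and at most 4 genes per list past the threshold in a soft-to-stiff comparison, those past it in most comparisons first. Amn, Otx2, Sox3 and the marker genes given with their levels were named outside that rule after their values had been seen. No protein sequences were used here, and some genes of the lists are not reported here.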

Additional observations from a re-analysis of the deposited data

Results flagged for a closer look

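The response of Trh to LIF at 48 h differed between media without and with PD03. As means over soft and stiff substrates, LIF raised Trh without PD03 and lowered it with PD03, and the difference between the 2 log2 fold changes was -1.0 ± 0.12 (adjusted p = 2.45e-06, edgeR's quasi-likelihood test). Leaving out any 1 of 27 libraries gave -1.06 to -0.93, and the pool term -1.11 to -0.90 over 45 assignments, all past the threshold. The contrast was added after the values of Trh had been seen. No member had an outlying library among the 6 soft libraries in serum + PD03, the only group large enough to examine.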

How the results depend on the processing

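With RLE scaling or without the filter, the number of the 5 genes past the threshold kept within 1.5 times its value in each comparison. With DESeq2 it went from 1 to 0 for soft against stiff at 24 h and for LIF in serum, and with the compared groups alone from 2 to 1 for 48 h against 24 h and from 5 to 3 for soft against stiff at 48 h in serum + LIF and in serum. With a pool term it was 0 to 1 at 24 h and for LIF in serum, 1 under all 45 assignments for 48 h against 24 h, and, for soft against stiff at 48 h, 0 to 3 in serum + LIF, 0 to 4 in serum and in serum + PD03 and 0 to 3 in serum + LIF + PD03. Leaving out 1 library gave 0 to 1 at 24 h and for LIF in serum, 2 to 5 for soft against stiff in serum + LIF and in serum, 3 to 4 in serum + PD03, 3 in serum + LIF + PD03 and 2 to 3 for 48 h against 24 h. In serum + LIF the count was 3 without stiff library 1 or 3 and 2 without soft library 1, and in serum 2 members passed when stiff library 1 was left out and 3 when soft library 2 was left out. The counts for PD03 (5 and 5), for hydrogels against plastic (3) and for LIF in serum + PD03 (1) did not change on leaving out a library.

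The pool term also turned the sign of log2 fold changes at the end of its range. Against plastic it gave -0.03 for Ly6g6e and -0.76 for Hesx1, and for 48 h against 24 h -0.13 for Cubn, -0.25 for Srgn and 0.36 for Hesx1. For soft against stiff at 48 h it gave -0.24 for Trh in serum + LIF and -0.02 in serum, -0.03 for Srgn in serum + PD03 and -0.01 for Ly6g6e in serum + LIF + PD03. The cause was not tested, and the term rests on the 3 libraries whose pool differs from that of their group. The fall of Ly6g6e with time was lost with the compared groups alone (adjusted p = 0.0514) and without the filter (adjusted p = 0.0527), while Cubn passed without the filter (0.19, adjusted p = 0.0355, edgeR) and without soft library 3 at 24 h (0.26, adjusted p = 0.0447, edgeR). No paired analysis was possible because the columns of the count table carry no replicate number. With counts as low as 20 for Ly6g6e and 11 for Hesx1 in a library without PD03, small differences were not detectable at this depth.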
